A study of Homo sapiens with 4 samples.

Results

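Open chromatin was examined at 7 transcription factor genes of luminal epithelium, GATA2, GRHL2, ELF3, TRPS1, XBP1, SPDEF and GATA3, in LNCaP cells given GSK2879552 or vehicle. LNCaP is a human prostate cancer line that responds to androgen. GSK2879552 inhibits LSD1 (KDM1A), an enzyme that removes methyl groups from histone H3. A listed peak was assigned to a gene when its summit fell inside the gene or within 50 kb of it, on hg19 intervals, with no use of the signal. That rule gave 110 of the 161535 peaks of the GSK2879552 list and 129 of the 191905 peaks of the vehicle list on chromosomes 1 to 22, X and Y.

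ATAC-seq measures how often a transposase inserts adapters, and so how accessible the DNA is. The inhibitor group was described as 50 µM GSK2879552 for 4 hours in RPMI1640 medium with 5% CSS, after growth with 10% serum. The same protocol text stands on the vehicle samples, whose agent label is vehicle. Each condition had 2 lanes that are technical replicates and 1 peak list, hence 1 library per condition, no replicate check and no test between conditions. The inhibitor and the library cannot be told apart. Intervals below are exact 95% intervals that cover counting error only.

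Factors of this kind keep luminal cells in an epithelial state. GATA2, a zinc finger factor, opens chromatin and works with the androgen receptor at prostate enhancers. GATA3 is its close relative, best known from luminal cells of breast, and TRPS1 is an atypical GATA-type zinc finger protein that represses transcription. GRHL2, of the grainyhead family, sustains genes of cell junctions. ELF3 and SPDEF are ETS factors of epithelia, and SPDEF is also called prostate-derived ETS factor. XBP1 is the bZIP effector of the unfolded protein response in cells that secrete.

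Summit tags, the number of sequenced tags that cover a peak's highest point, were recovered from the authors' fold and −log10 p. The expected tags per position across the genome were 2.72 in the GSK2879552 library and 2.31 in the vehicle library, so tag ratios were divided by 1.18. This scaling lowers every log2 ratio by 0.23. Peaks with a single partner in the other list, and the same for that partner, formed 110134 pairs, and their median log2 ratio, GSK2879552 over vehicle, was -0.56 scaled and -0.32 unscaled. Values at the genes are therefore set beside those for all pairs. A pair is given by the coordinates and distance of its vehicle peak.

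The promoters of 4 genes are given here. They were chosen because a listed peak lay at the hg19 interval start of XBP1, ELF3 and SPDEF. For GATA2 a listed peak lay about as far into the gene as its inner annotated start does. Whether the peaks lie at the printed starts, which are on GRCh38.p14, was not checked. Each line holds the 250 bases before an annotated start, 5′ to 3′ on the strand of the gene, from RefSeq on GRCh38.p14. Of the 7 genes, 5 had an entry in that table, and GRHL2 and TRPS1 were the others. Capitals mark matches, on either strand, to CCAAT, to the TATA box TATAAA, to the forkhead motif TATTTAC, to the ETS motif AGGAAG and to the ER stress element. That element, a site through which the unfolded protein response acts, was searched as CCAAT and CCACG with 9 bases of any kind between, so it contains CCAAT. The XBP1 window is chr22:28800570-28800819 (minus strand), ELF3 is chr1:202010337-202010586 (plus), SPDEF is chr6:34556330-34556579 (minus), and the inner GATA2 start has chr3:128488531-128488780 (minus).
XBP1: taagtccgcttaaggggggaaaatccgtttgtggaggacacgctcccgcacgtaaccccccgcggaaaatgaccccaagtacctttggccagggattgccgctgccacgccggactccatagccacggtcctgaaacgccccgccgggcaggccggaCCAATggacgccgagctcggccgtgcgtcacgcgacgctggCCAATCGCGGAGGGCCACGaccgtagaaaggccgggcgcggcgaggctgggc
ELF3: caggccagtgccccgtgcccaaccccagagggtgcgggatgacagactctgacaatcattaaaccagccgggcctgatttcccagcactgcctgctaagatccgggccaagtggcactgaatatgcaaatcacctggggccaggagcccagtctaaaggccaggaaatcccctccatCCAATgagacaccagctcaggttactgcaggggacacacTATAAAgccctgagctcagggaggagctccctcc
SPDEF: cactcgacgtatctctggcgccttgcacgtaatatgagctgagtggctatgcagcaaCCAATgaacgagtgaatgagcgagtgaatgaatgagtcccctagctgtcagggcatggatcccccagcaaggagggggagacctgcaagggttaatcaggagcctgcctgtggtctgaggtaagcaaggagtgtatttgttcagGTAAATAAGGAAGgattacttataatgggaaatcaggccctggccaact
GATA2, inner start: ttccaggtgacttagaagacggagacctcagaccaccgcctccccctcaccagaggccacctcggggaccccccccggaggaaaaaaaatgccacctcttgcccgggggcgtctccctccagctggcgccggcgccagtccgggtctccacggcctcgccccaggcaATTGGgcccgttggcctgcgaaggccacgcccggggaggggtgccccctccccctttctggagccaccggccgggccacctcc

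In XBP1 the ER stress element began 52 bases before the first of its 2 annotated starts, and a further CCAAT began 93 bases before that start. The window of the second start, 492 bases after the first and not printed, held AGGAAG but neither CCAAT nor the ER stress element. Of 34788 distinct promoter windows of the same length in the table, 0.0747% held that element and 32.0% held CCAAT. ELF3 had TATAAA at 34 bases, found in 10.8% of windows, and CCAAT at 73 bases. SPDEF had AGGAAG at 42 bases, found in 28.7% of windows, beside it TATTTAC on the other strand, found in 2.41%, and CCAAT at 193 bases. The inner GATA2 window had CCAAT alone, on the other strand at 83 bases. The GATA motifs AGATAA and TGATAA, in 9.21% and 6.68% of windows, the forkhead motif TGTTTAC (2.98%), the grainyhead motif AACCNGTT (1.49%), CGGAAG (16.5%) and TGACGT (7.09%) had no match in the 4 windows printed. Base composition also differed, with 67.6% G and C in the XBP1 window and 71.2% in that of GATA2, against 58.4% in ELF3 and 50.8% in SPDEF. The median of all windows was 58%. A match describes letters only and was not tied to binding.

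Of the 7 genes, 5 had a peak over their start under both conditions, namely GRHL2, ELF3, XBP1, TRPS1 and SPDEF. These starts are the ends of the hg19 intervals and not those of the printed windows, and no coordinate was converted between builds. The ELF3 start peak, chr1:201979397-201980175, had 87 tags (69.7 to 107) with GSK2879552 and 99 tags (80.5 to 121) with vehicle. At the GRHL2 start, chr8:102504233-102505060, 79 tags (62.5 to 98.5) were counted with GSK2879552 and 94 tags (76.0 to 115) with vehicle. For XBP1, at chr22:29195836-29196782, the values were 73 tags (57.2 to 91.8) with GSK2879552 and 90 tags (72.4 to 111) with vehicle. All 5 had fewer tags in the inhibitor library before scaling, and in each gene the counting intervals of both conditions overlapped.

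TRPS1 and SPDEF had lower start peaks. The TRPS1 start peak, chr8:116681002-116681594, had 52 tags (38.8 to 68.2) with GSK2879552 and 62 tags (47.5 to 79.5) with vehicle, over backgrounds of only 3.47 with GSK2879552 and 3.83 with vehicle. That of SPDEF, chr6:34523734-34524226, had 38 tags (26.9 to 52.2) with GSK2879552 and 51 tags (38.0 to 67.1) with vehicle, over 7.44 with GSK2879552 and 8.08 with vehicle. By −log10 p within its own list the SPDEF start peak stood at percentile 71.3 with GSK2879552 and 75.1 with vehicle, while those of the other 4 genes stood at percentile 93.2 or higher in both lists. Scaled for depth, the start ratios were 0.747 (0.554 to 1.01) for ELF3, 0.713 (0.484 to 1.05) for TRPS1, 0.690 (0.4996 to 0.95) for XBP1 and 0.634 (0.405 to 0.984) for SPDEF. The GRHL2 start region, 2 peaks with GSK2879552 and 1 with vehicle, gave 0.715 (0.523 to 0.975) by its highest summits. Each of these 5 intervals includes 0.683, the ratio of summed tags over all pairs of the lists.

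**Figure D1:**
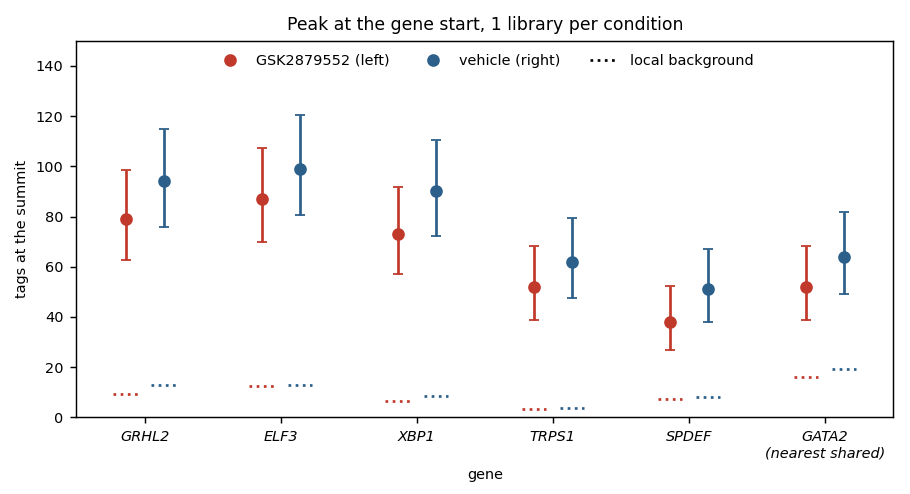
Tags at the summit of the peak over the gene start (y axis) for 5 genes, and of the shared peak nearest to the start for GATA2, with GSK2879552 left and vehicle right in each pair. Bars are exact 95% Poisson intervals and dotted lines the local background. The GSK2879552 value is the lower of both in every gene, for example 38 tags with GSK2879552 against 51 with vehicle at SPDEF, and GATA2 has the highest background.

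GATA2 lay in a broad stretch of raised signal rather than under a single start peak. The background around a peak is counted over 10 kb, so it gives the tags of a wide window. Its highest value at GATA2 was 17.4, or 1740 tags per 10 kb (1659 to 1824), with GSK2879552, and 21.5, or 2154 tags (2064 to 2247), with vehicle. That is 6.41 times the genome-wide level with GSK2879552 and 9.33 times with vehicle, at percentile 99.4 of the GSK2879552 list and 99.7 of the vehicle list. At the 5 paired GATA2 peaks the depth-scaled ratio of this background was below 1, with a median of 0.716. Over the 1347 pairs of the lists with a summed background of 30 or more the median was 0.801, and the middle 50% of them spanned 0.734 to 0.963. The 3 pairs of GATA2 in that range had a median of 0.710. Their vehicle summits lay 237, 2582 and 6410 bp into the gene, so their 10 kb windows overlap. These windows count partly the same tags and are not 3 separate measurements.

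At chr3:128206635-128207486, the GSK2879552 list held 2 peaks of 59 and 58 tags, against 1 vehicle peak of 82 tags (65.2 to 102), the highest of GATA2. Its vehicle summit lay 4662 bp inside the gene, and in RefSeq the inner start printed above lies 4671 bases inside the gene on GRCh38.p14. The higher GSK2879552 peak gave a scaled ratio of 0.612 (0.430 to 0.866). Near the outer start the shared peak chr3:128211697-128211956, with its summit 237 bp into the gene, had 52 tags with GSK2879552 and 64 tags with vehicle, a ratio of 0.691 (0.470 to 1.01). A vehicle peak of 41 tags (29.4 to 55.6), chr3:128212086-128212253, lay 191 bp before the outer start over a background of 18.01 and had no GSK2879552 partner. The list gives no tag number for a position it does not hold, so its level with GSK2879552 is not known.

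Upstream of GATA2, the peak chr3:128216453-128216921 had 42 tags with GSK2879552 and 65 tags with vehicle, the lowest ratio of the locus at 0.550 (0.364 to 0.823). Its summit lay 4587 bp before the gene. The highest ratio of the locus, 0.830 (0.527 to 1.31), was at the inner peak chr3:128205563-128205662, with 41 tags with GSK2879552 and 42 tags with vehicle. Another strong pair, chr3:128209353-128209530, lay 2582 bp into the gene and had 49 tags with GSK2879552 and 55 tags with vehicle, at 0.758 (0.505 to 1.13). All 3 intervals include 0.683.

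**Figure D2:**
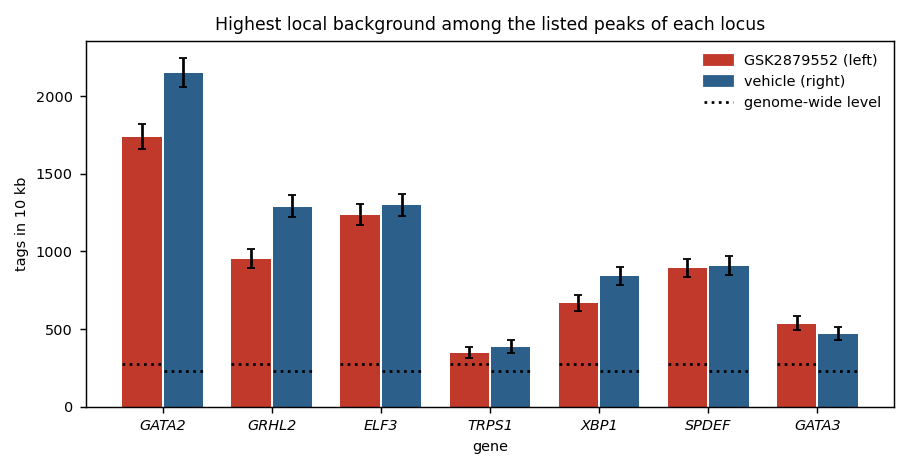
Highest local background among the peaks of each gene, as tags per 10 kb (y axis), with GSK2879552 left and vehicle right in each pair, exact 95% Poisson intervals, and the genome-wide level dotted. GATA2 is highest, with 1740 tags with GSK2879552 and 2154 with vehicle, and TRPS1 lowest, with 347 with GSK2879552 and 386 with vehicle. The values are not scaled for depth.

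GRHL2 carried the most peaks of the 7 genes, 38 with GSK2879552 and 45 with vehicle, of which 27 with GSK2879552 and 31 with vehicle lay inside the gene. This equals 15.2 peaks per 100 kb of gene body with GSK2879552 and 17.5 with vehicle. Beyond its start, the strongest pairs were chr8:102595625-102595913, with 60 tags with GSK2879552 and 68 tags with vehicle, and chr8:102647962-102648306, with 61 tags with GSK2879552 and 64 tags with vehicle. They lie 91105 and 143475 bp into the gene and had ratios of 0.751 (0.521 to 1.08) and 0.811 (0.561 to 1.17). The next pair, chr8:102505952-102506738, lay 1559 bp into the gene and had 44 tags with GSK2879552 and 68 tags with vehicle, a ratio of 0.550 (0.368 to 0.816).

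The widest spread of ratios was also at GRHL2. At chr8:102619906-102620110, inside the gene, 22 tags stood with GSK2879552 against 43 with vehicle, a ratio of 0.435 (0.248 to 0.744) and the lowest of all 78 pairs. At chr8:102464436-102464601, which lies 40187 bp upstream, 20 tags stood with GSK2879552 against 13 with vehicle, a ratio of 1.31 (0.619 to 2.86) and the highest of all 78. The interval of the highest includes 0.683, as does that of the lowest.

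TRPS1 presented the opposite layout, a gene longer than GRHL2 with few and low peaks. Its body held 10 peaks with GSK2879552 and 13 with vehicle, or 3.84 per 100 kb with GSK2879552 and 4.99 with vehicle. Of all its peaks, 14 of 16 with GSK2879552 and 14 of 20 with vehicle stood at the genome-wide background. At GRHL2 these were 9 of 38 with GSK2879552 and 6 of 45 with vehicle. The whole lists had 62050 of 161535 peaks there with GSK2879552 and 77284 of 191905 with vehicle. Apart from the start, the strongest pair was chr8:116728877-116729149, which lies 47818 bp upstream, with 30 tags with GSK2879552 and 42 tags with vehicle. Its ratio of 0.608 (0.367 to 0.994) was the lowest of the locus. Next came chr8:116461637-116461856, which lies 219522 bp into the gene, with 31 tags with GSK2879552 and 38 tags with vehicle, at 0.694 (0.417 to 1.15). The highest ratio at TRPS1 was 0.972 (0.445 to 2.15) at chr8:116601062-116601209, with 16 tags with GSK2879552 and 14 tags with vehicle.

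ELF3 had strong peaks on both sides and at its start, and nearly none inside. In its body the GSK2879552 list had only the start peak, whose summit lay 11 bp inside, and the vehicle list had none, since the vehicle summit of that peak lay 56 bp before the start. Just past the gene, at chr1:201987486-201988352, the higher of 2 GSK2879552 peaks had 87 tags, against 99 tags (80.5 to 121) for the vehicle peak, a ratio of 0.747 (0.554 to 1.01). The peak chr1:201977339-201977576, 2252 bp upstream, had 71 tags with GSK2879552 and 80 tags with vehicle, at 0.755 (0.541 to 1.05). The far peak chr1:202026063-202026453, 46596 bp past the start, had 75 tags with GSK2879552 and 71 tags with vehicle. Among ELF3 pairs of 30 tags or more, counted over both conditions, its ratio of 0.898 (0.641 to 1.26) was the highest, lower with GSK2879552 after scaling though not before it. The lowest, 0.510 (0.282 to 0.901), was at chr1:201941731-201942079, with 21 tags with GSK2879552 and 35 tags with vehicle.

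XBP1 had its second strongest pair at chr22:29195246-29195643, 1153 bp into the gene, with 47 tags with GSK2879552 and 58 tags with vehicle, a ratio of 0.689 (0.459 to 1.03). An upstream peak, chr22:29209770-29210062, had 49 tags with GSK2879552 and 54 tags with vehicle, at 0.772 (0.513 to 1.16). The lowest ratio there was 0.481 (0.224 to 0.990) at chr22:29203852-29204017, with 13 tags with GSK2879552 and 23 tags with vehicle. The highest was 0.818 (0.453 to 1.47) at chr22:29155881-29156105, with 25 tags with GSK2879552 and 26 tags with vehicle. Only XBP1 of the 7 genes had more listed peaks with GSK2879552 than with vehicle, 15 against 13. Past its end, 2 vehicle peaks, chr22:29168552-29169600 and chr22:29179762-29180504, each overlapped 2 GSK2879552 peaks, so these 2 regions appear as 4 peaks in the GSK2879552 list. Their highest summits, 60 tags with GSK2879552 against 80 with vehicle and 51 tags with GSK2879552 against 65 with vehicle, gave ratios of 0.638 (0.449 to 0.903) and 0.667 (0.453 to 0.978).

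SPDEF had its strongest peaks past the end of the gene. At chr6:34504142-34504754 there were 77 tags with GSK2879552 and 95 tags with vehicle, a ratio of 0.689 (0.504 to 0.941). At chr6:34494944-34495278 there were 70 tags with GSK2879552 and 79 tags with vehicle, a ratio of 0.754 (0.538 to 1.05). Both exceeded the start peak of the gene in either list. Upstream, chr6:34566371-34566839 had 43 tags with GSK2879552 and 46 tags with vehicle, at 0.795 (0.512 to 1.23). The lowest ratio was 0.519 (0.302 to 0.873) at chr6:34570494-34570923, with 25 tags with GSK2879552 and 41 tags with vehicle, and the highest 0.820 (0.465 to 1.44) at chr6:34497549-34497684, with 27 tags with GSK2879552 and 28 tags with vehicle.

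GATA3 was the exception among the genes, with no listed peak inside its hg19 interval under either condition. The GSK2879552 list held 5 peaks in its window, of 12 to 19 tags, and the vehicle list 7 peaks, of 10 to 25 tags. The nearest listed summit was 9395 bp upstream with GSK2879552, with 18 tags, and 1199 bp upstream with vehicle, where chr10:8095423-8095537 had 16 tags. Only 2 pairs existed. Of these, chr10:8079911-8080140 had 19 tags with GSK2879552 and 25 tags with vehicle, at 0.646 (0.337 to 1.22). The other, chr10:8087272-8087481, had 18 tags with GSK2879552 and 15 tags with vehicle, at 1.02 (0.486 to 2.18). RefSeq lists 6 starts for GATA3 spread over 15124 bases on GRCh38.p14, so the interval start used here is 1 of several. A later of these starts lies 9355 bases after the first, and the nearest GSK2879552 summit lay 9395 bp before the interval start. Which start the interval uses was not determined, so peaks listed as upstream may lie at or past another RefSeq start. Of the 7 genes named as luminal factors, GATA3 was thus the one with no peak within its hg19 interval in either list. Marker genes outside the 7 were not located here.

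**Figure D3:**
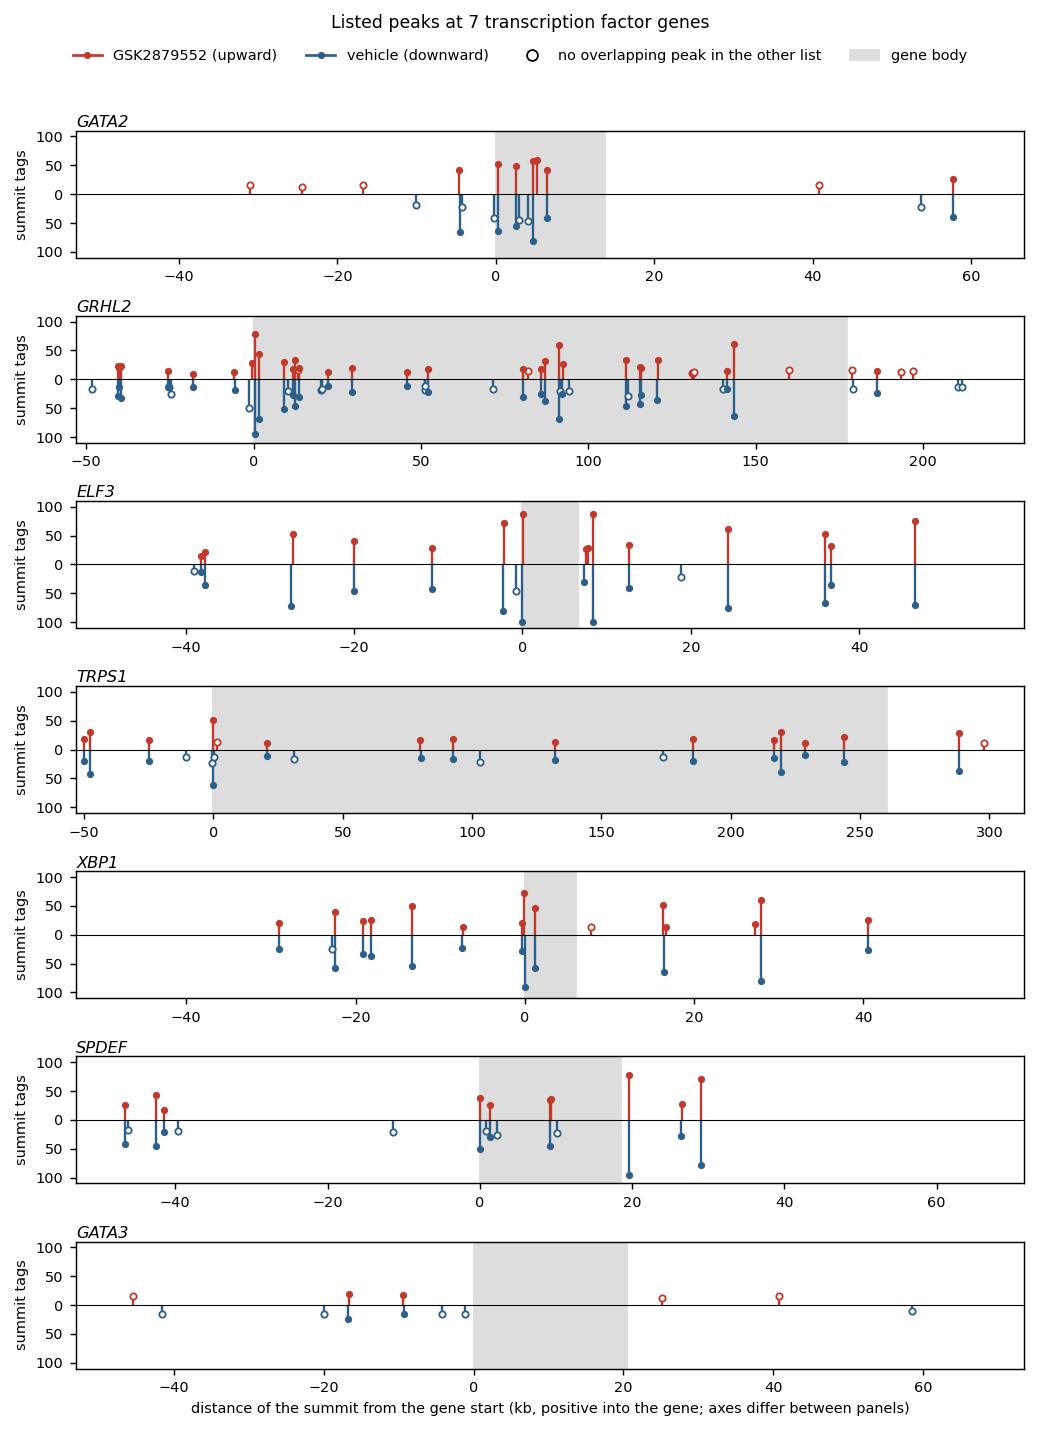
Each stem is a listed peak of 1 of the 7 genes, with the distance of its summit from the gene start in kb on the x axis and summit tags on the y axis, GSK2879552 upward and vehicle downward. Open circles have no overlapping peak in the other list and grey marks the gene body. Most stems have a counterpart at the same distance in the other list. In 64 of the 78 pairs the GSK2879552 stem is lower before scaling, as in 91756 of all 110134 pairs. GRHL2 is densely covered, and the hg19 interval of GATA3 is empty.

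Taken over the 7 genes together, most peaks were listed under both conditions. A vehicle partner existed for 91 of the 110 GSK2879552 peaks, or 82.7% (74.3 to 89.3), and for 76.5% of the whole GSK2879552 list. A GSK2879552 partner existed for 85 of the 129 vehicle peaks, or 65.9% (57.0 to 74.0), and for 61.5% of the whole vehicle list. Without a partner were 19 GSK2879552 peaks, 17.3%, where 23.5% of the whole list had none, and 44 vehicle peaks, 34.1%, where 38.5% had none. Both intervals hold the value of the whole list.

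The peaks listed under 1 condition only had a lower median of tags than all peaks of the 7 genes, which was 22.5 tags with GSK2879552 and 26 tags with vehicle. The 19 GSK2879552-only peaks had 11 to 16 tags, with a median of 14 tags. The 44 vehicle-only peaks had 10 to 50 tags, with a median of 18.5 tags, and the highest of them stood over a raised local background. All GSK2879552 peaks at ELF3 (15) and SPDEF (10) had a vehicle partner, while 3 of 17 vehicle peaks at ELF3 and 6 of 15 at SPDEF had no GSK2879552 partner. At GRHL2, 9 of 38 GSK2879552 peaks, 23.7%, and 17 of 45 vehicle peaks, 37.8%, were without a partner. The vehicle shares were 17.6% at ELF3 and 40% at SPDEF. The shares without a partner were highest at GATA3, 3 of 5 GSK2879552 peaks (60%) and 5 of 7 vehicle peaks (71.4%). At GATA2 they were 4 of 11 with GSK2879552 (36.4%) and 6 of 12 with vehicle (50%). TRPS1 had 2 of 16 with GSK2879552 and 6 of 20 with vehicle, and XBP1 had 1 of 15 with GSK2879552 and 1 of 13 with vehicle. In the whole lists, 23.5% of GSK2879552 peaks and 38.5% of vehicle peaks had no partner.

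By −log10 p the strongest GSK2879552-only peak at GATA3 was chr10:8051136-8051295, with 16 tags (9.15 to 26.0). At GRHL2 it was chr8:102664678-102664779 with 16 tags, at GATA2 chr3:128242960-128243112 with 16 tags, at TRPS1 chr8:116679777-116679923 with 14 tags, and at XBP1 chr22:29188658-29188763 with 13 tags. These 5 peaks are low in tags, and none holds a gene start.

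By −log10 p, which weighs tags against the local background, the strongest vehicle-only peak was chr8:102480028-102480186 at GRHL2, with 25 tags (16.2 to 36.9) over a background of 2.62. At TRPS1 it was chr8:116577916-116578114 and at GATA2 chr3:128158263-128158379, with 22 tags each. At XBP1 chr22:29219301-29219448 had 24 tags, at ELF3 chr1:201998390-201998538 and at SPDEF chr6:34535375-34535562 had 21 tags each, and at GATA3 chr10:8054936-8055229 had 16 tags. Vehicle-only peaks with more tags but a lower −log10 p, picked after their values were seen, lay where the background was high. At GRHL2 chr8:102503077-102503219, which lies 1522 bp upstream, had 50 tags over a background of 12.9, and at ELF3 chr1:201978790-201978989, which lies 812 bp upstream, had 46 tags over 12.8. At GATA2, beside the peak of 41 tags before the outer start, chr3:128207914-128208085 had 46 tags over 21.5 and chr3:128209041-128209140 had 44 tags over 20.95.

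The paired peaks of the 7 genes had a ratio close to that of the whole lists. The 78 pairs summed to 2437 tags with GSK2879552 and 3007 tags with vehicle, a scaled ratio of 0.689 (0.653 to 0.727), and all 110134 pairs gave 0.683 (0.682 to 0.684). Without scaling these ratios were 0.810 and 0.803. A scaled ratio below 1 was found in 76 of the 78 pairs, 97.4%, where 94.2% of all pairs had one. A ratio below 0.5 was found in 3 pairs, where 7.10% of all pairs had one, and a ratio above 1 in 2 pairs, where 5.83% had one. Before scaling, 64 pairs had fewer tags with GSK2879552, 5 had equal tags and 9 had more. Of all 110134 pairs, 91756 had fewer, 4303 equal and 14075 more. For single pairs the counting interval lay below 1 in 21 of 78, or 26.9%, where 26.8% of all pairs had such an interval.

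The counting intervals of the 7 genes all overlapped one another. The lowest was 0.653 (0.589 to 0.723) at GRHL2, followed by 0.660 (0.571 to 0.763) at XBP1 and 0.675 (0.560 to 0.811) at GATA2. SPDEF had 0.7005 (0.603 to 0.814), ELF3 0.719 (0.642 to 0.805) and TRPS1 0.746 (0.637 to 0.874). GATA3, with 2 pairs, had 0.787 (0.489 to 1.26). All 7 intervals include 0.683, and after scaling those of 6 genes lie below 1. They do not cover any error of the scaling itself. Without scaling, the ratios ran from 0.767 at GRHL2 to 0.925 at GATA3, with 0.878 at TRPS1. Of the 14 TRPS1 pairs, 8 had fewer tags with GSK2879552 before scaling, 2 had equal tags and 4 had more.

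**Figure D4:**
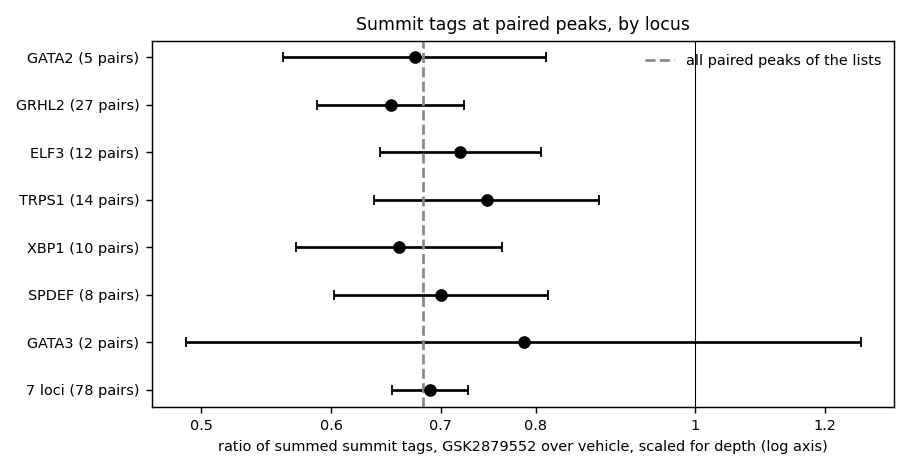
Scaled ratio of summed summit tags, GSK2879552 over vehicle, on a log axis, for each gene and for the 7 together, with exact 95% binomial intervals. The dashed line is the ratio of 0.683 over all paired peaks. Every interval crosses that line, and only that of GATA3 reaches 1.

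At TRPS1 and GRHL2, as over all pairs, the median of pairs under 40 tags lay nearer to a ratio of 1 than that of higher pairs. Of the 14 TRPS1 pairs, 9 had under 40 tags over both lists, and their median log2 ratio was -0.23, while its 5 higher pairs had -0.53. Over all pairs of the lists the median was -0.40 under 40 tags and -0.59 from 40 tags on. It did not change steadily with tags. By finer ranges it was -0.23 under 30 tags, -0.51 at 30 to 39, -0.65 at 40 to 59 and -0.48 at 120 or more. At GRHL2 the 9 low pairs had -0.41 and the 18 higher pairs -0.73. Set against the median of all pairs in the same range of tags, the median pair differed on the log2 scale by 0.28 at GATA3, 0.12 at TRPS1, 0.07 at ELF3, 0.05 at GATA2 and 0.02 at SPDEF, by -0.05 at XBP1 and by -0.06 at GRHL2. A pair has to be listed in both libraries, so peaks that missed the threshold in either are not among the low pairs.

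**Figure D5:**
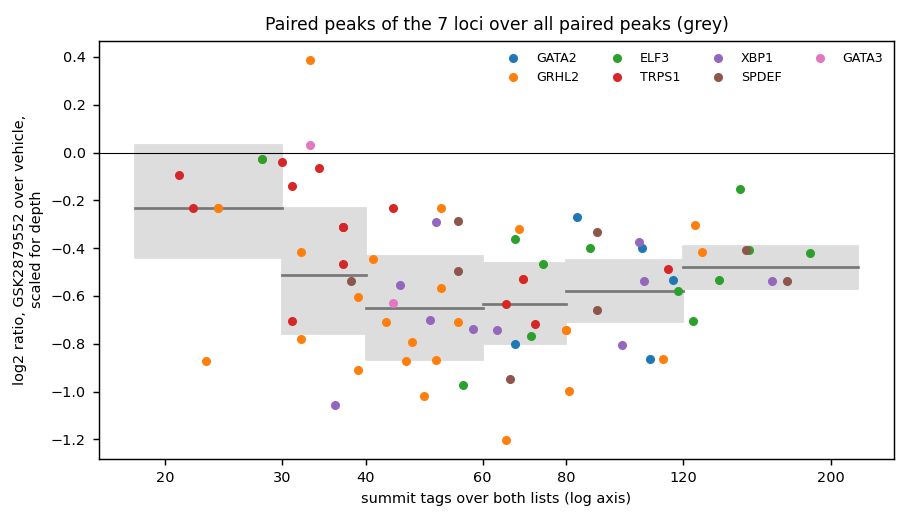
Log2 ratio of summit tags, GSK2879552 over vehicle, scaled for depth (y axis), against tags over both lists (log x axis) for the 78 pairs, 1 colour per gene. Grey boxes span the middle 50% of all paired peaks in 6 ranges of tags, with the median as a line. Of the 78 points, 2 lie above 0, and 33 lie below the median of all pairs in their range.

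Upstream, inner and downstream pairs did not separate. Pairs upstream had a ratio of 0.677 (0.621 to 0.737, 31 pairs), pairs inside the genes 0.685 (0.628 to 0.747, 35 pairs) and pairs downstream 0.722 (0.641 to 0.813, 12 pairs). These intervals overlap. Some flanking peaks may belong to neighbouring genes. In RefSeq on GRCh38.p14 the protein-coding genes within 50 kb were TIMM17A and RNPEP by ELF3, HSCB and CCDC117 by XBP1, PACSIN1 and ILRUN by SPDEF, DNAJB8 by GATA2, NCALD by GRHL2 and TAF3 by GATA3, with none by TRPS1.

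Shared peaks kept their place and were mostly narrower with GSK2879552. Summits moved by a median of 15 bp, within 50 bp in 64 of 78 pairs, or 82.1%, against 83.7% of all pairs. GSK2879552 peaks were narrower in 66 of 78 pairs, or 84.6%, against 81.2% of all pairs. All 10 pairs at XBP1, all 8 at SPDEF and both at GATA3 were narrower. Listed peaks covered 25346 bp at the 7 genes with GSK2879552 and 34745 bp with vehicle, a ratio of 0.729, against 0.751 for the whole lists.

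The windows of the 7 genes held more listed peaks than the average of the genome. They had 9.14 per 100 kb with GSK2879552 and 10.7 with vehicle. The span of the whole lists had 5.37 with GSK2879552 and 6.37 with vehicle. Windows around other genes were not counted, so a comparison with genes in general was not made. With GSK2879552 the 3 densest were XBP1, at 14.1 per 100 kb with GSK2879552 and 12.3 with vehicle, ELF3, at 14.1 with GSK2879552 and 15.9 with vehicle, and GRHL2, at 13.7 with GSK2879552 and 16.2 with vehicle. GATA2 had 9.67 with GSK2879552 and 10.5 with vehicle, and SPDEF 8.44 with GSK2879552 and 12.7 with vehicle, above XBP1 in the vehicle list. Below the average of the genome were TRPS1, at 4.44 with GSK2879552 and 5.55 with vehicle, and GATA3, at 4.15 with GSK2879552 and 5.81 with vehicle. The outermost summit of TRPS1 lay 37 bp inside its window with GSK2879552, with 18 tags, and 45 bp inside it with vehicle, with 19 tags. Those next outside lay 20647 bp beyond it with GSK2879552, with 15 tags, and 20639 bp with vehicle, with 24 tags. At GRHL2 a vehicle peak of 14 tags lay 58 bp outside the window.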

How the data were processed

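ATAC-seq libraries of LNCaP cells were made with Illumina's TDE1 tagmentation enzyme, per the labels' protocols. Per the submitters' processing notes, BWA 0.7.2, SAMtools 0.1.18, MACS2 2.1.2 and hg19 are listed, in roles the notes do not state. Settings for trimming, duplicate removal and read shift were not given in the sources used here, nor was the sequencing depth. The lists deposited by the authors hold per peak a score, a fold (the ratio of summit tags to background), −log10 p and −log10 q.

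A whole number of tags fitted the fold and −log10 p deposited by the authors within 0.001 in 100% of peaks, and the same step recovered 100% of 5000 simulated peaks. Backgrounds above the lowest were multiples of 0.01 in 100% of peaks, the step of 100 bp tags counted over 10 kb. Total tags per library are unknown. An overlap of 1 bp made peaks partners. Shares have Clopper-Pearson intervals, tags Poisson and ratios binomial intervals, all exact and for counting error only. Named peaks are those at the start, the 3 strongest pairs, the lowest and highest ratio among pairs of at least 30 tags, and the strongest peak of 1 list only. Peaks with several partners and the outermost peaks of a window were named after their values were seen. The genes, lists and rules were chosen with earlier results of these data known. Gene starts were read from the hg19 intervals and the strand. Python 3.11.15, NumPy 2.4.6, pandas 2.3.3, SciPy 1.17.1 and matplotlib 3.10.9 were used.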

Additional observations from a re-analysis of the deposited data

How the results depend on the processing

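No paired analysis was possible because each condition had 1 library, and no replicate could be left out. The ratio of summed tags over the 7 genes, 0.689, ranged from 0.669 to 0.810 over 19 alternatives. The highest was without scaling for depth, where the median log2 ratio was -0.30 in place of -0.53, by construction. Scaling also moved 5 single genes outside their intervals, and all 81 values for single genes stayed below 1. Counts of 110 GSK2879552 and 129 vehicle peaks were 48 and 57 in gene bodies alone, and 72 and 84 without GRHL2, as fewer regions were counted. Under a stricter −log10 q threshold of 5, the lists kept 71 GSK2879552 peaks and 101 vehicle peaks, and the share of GSK2879552 peaks with a partner was 94.4% in place of 82.7%. With a reciprocal overlap of 50% it was 70.0%. The other 81 values for the 7 genes together stayed within their interval or within 1.5 times the count. Weak peaks carry the widest intervals, and peaks called from fewer tags were not analysed here.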
